A study of Homo sapiens with 8 samples.

Results

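Cyclins, cyclin-dependent kinases (CDKs) and CDK inhibitors decide whether a cell passes from the G1 phase into DNA synthesis. The 10 genes described here were chosen by name, as 5 CDK inhibitors (CDKN1A, CDKN1B, CDKN1C, CDKN2C and CDKN2D) and 5 drivers of G1 progression (CCND1, CCND2, CCND3, CCNE1 and CDK6), out of 20090 protein-coding genes annotated on hg19. All 10 had at least 1 peak of each histone mark in their region and were kept. HL-60, an established human promyelocytic leukemia line, was given 1 µM all-trans retinoic acid (ATRA) in ethanol for 4 days, and control cells received ethanol alone for the same time, with fresh medium and agent at day 2 in both groups. Histone H3 trimethylated at lysine 4 (H3K4me3) and acetylated at lysine 27 (H3K27ac) were measured by chromatin immunoprecipitation and sequencing in 2 replicates of each condition, which makes 8 libraries. The data come from a single cell line, and the labels number the replicates without saying whether they were separate cultures, so the spread between them may be technical.

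D-type cyclins, encoded by CCND1, CCND2 and CCND3, activate CDK4 and CDK6, which phosphorylate the retinoblastoma protein and so release E2F transcription factors. Cyclin E, encoded by CCNE1, then activates CDK2. The inhibitors encoded by CDKN1A, CDKN1B and CDKN1C (p21, p27 and p57) bind cyclin-CDK complexes, whereas those encoded by CDKN2C and CDKN2D (p18 and p19) bind CDK4 and CDK6 themselves. Myeloid precursors stop dividing in G1 as they mature to granulocytes, and CDKN1A is a well-known gene of that arrest. H3K4me3 marks the promoters of genes that are active or ready to be, and H3K27ac marks active promoters and enhancers.

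The deposited values are the positions of broad peaks, called by the authors in each library separately, and hold no read counts, so sequencing depth is unknown. Coverage differed between whole libraries: H3K27ac peaks covered 64.8 and 86.1 Mb in the ATRA-treated and 28.8 and 54.0 Mb in the control libraries, and H3K4me3 peaks covered 63.2 and 62.3 Mb and 59.8 and 47.7 Mb, respectively. The paper reports fewer peaks of both marks in ATRA-treated than in control cells, counting peaks found in both replicates. In the deposited libraries, 19113 H3K27ac peaks were matched between the ATRA-treated replicates and 12389 between the control replicates. For H3K4me3 these numbers were 13134 and 11312. The reason for this opposite order was not tested, and all directions given here follow the labels of the libraries. A gene's region was its body with 20 kb on either side, and its value was the number of base pairs (bp) under peaks. A gene's change is given on the log2 scale, as the mean length with ATRA over the mean length with ethanol, both raised by 1000 bp, so changes of genes with little coverage are understated. The median change was 0.49 for H3K27ac over the 15477 genes with a peak and 0.16 for H3K4me3 over 14609 genes. When each library was scaled to the same total coverage, these medians became -0.13 and -0.04. A gene was counted as higher when both ATRA-treated libraries exceeded both control libraries, and as lower in the opposite case. No gene was tested, because the smallest exact two-sided p of a permutation with 2 libraries in each group is 0.33. Of 9 myeloid marker genes, 7 had an H3K4me3 peak over the transcription start site (TSS) in each ATRA-treated library and 5 in each control library (ELANE and AZU1 in none). Of 14 markers of T, B, erythroid and epithelial cells and hepatocytes, 2 (CD79A and KLF1) had one in any library.

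H3K27ac was higher around 5 of the 10 genes (CDKN1A, CDKN1C, CCND1, CCND2 and CCNE1) and lower around none. Among all genes with a peak, 43.7% were higher and 3.86% lower by the same rule, so this number is near the background. After scaling to the library total, 2 genes (CDKN1A and CDKN1C) were higher and 3 (CDKN1B, CDKN2C and CCND3) lower, where the background was 18.4% and 25.1%. The median change was 0.34 for the inhibitors (range 0.22 to 2.20) and 0.46 for the drivers (range -0.52 to 0.80). Both medians lay below that of all genes, and they differed by far less than the genes within each group. The genes at both ends stood out within their own groups, with CDKN1C and CDKN1A at percentiles 96.0 and 91.7 of all genes and CDK6 at percentile 4.86.

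**Figure D1:**
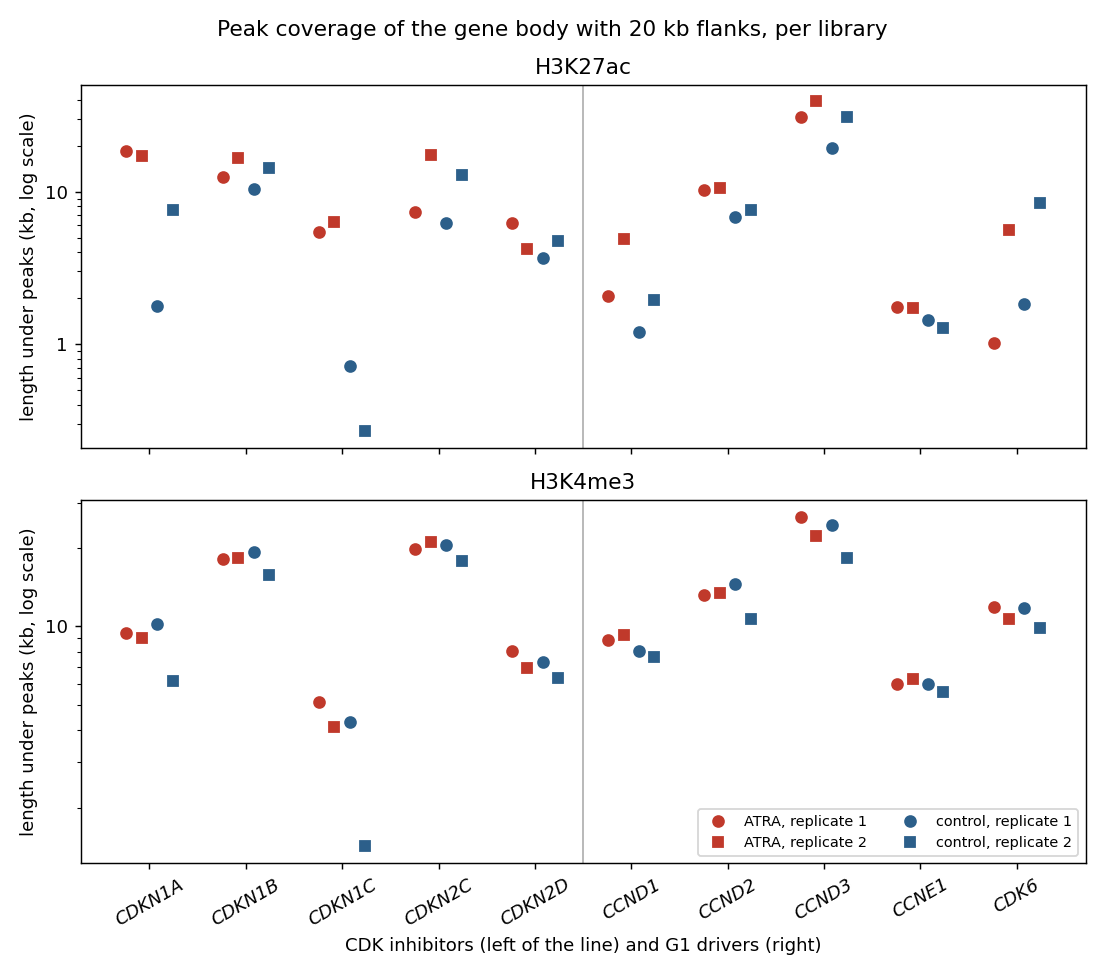
Length under H3K27ac (top) and H3K4me3 (bottom) peaks in the gene body with 20 kb flanks, in kb on a log axis, for each gene. Each point is 1 library (red, ATRA-treated; blue, control; circle, replicate 1; square, replicate 2), and the red H3K27ac points of CDKN1A and CDKN1C lie clear of the blue ones, whereas the H3K4me3 points mostly mix.

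**Figure D2:**
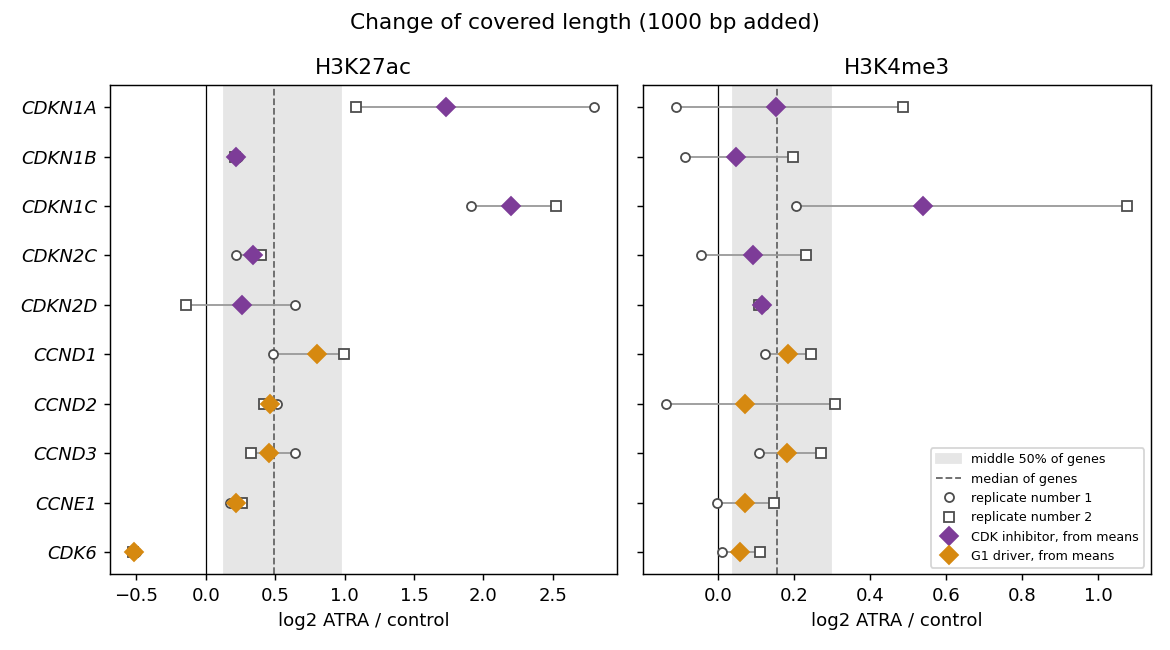
Change in covered length of each gene, on the log2 scale with ATRA over ethanol (diamonds, from the means of 2 libraries; open symbols, within replicate numbers 1 and 2). The gray band holds the middle 50% of all genes with a peak and the dashed line is their median (0.49 for H3K27ac and 0.16 for H3K4me3), and CDKN1A and CDKN1C lie right of the H3K27ac band and CDK6 left of it.

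The promoters were examined at the TSS of the canonical transcript. H3K4me3 peaks overlay the TSS of 9 of the 10 genes in both ATRA-treated libraries, all but CDKN1C, and of 8 in both control libraries. The background was 51.9% and 50.9% of protein-coding genes, respectively. The gene that differed was CDKN1A, whose TSS was under a peak of 2707 and 3111 bp in the ATRA-treated libraries and of 4410 bp in control replicate 1. In control replicate 2 the peak was 932 bp long and began 1542 bp downstream of the TSS, so the control replicates disagreed on this promoter. The longest H3K4me3 peaks at a TSS belonged to CDKN1B and CDKN2C. At CDKN1B they were 14947 and 15123 bp long with ATRA and 15624 and 13448 bp with ethanol, and at CDKN2C 13993 and 14200 bp and 13988 and 13131 bp. At CCNE1 the 4 peaks were between 5577 and 5798 bp long, the closest agreement among the 10 genes. None of these promoter peaks separated the conditions by more than the replicates differed, except at CCNE1, where both peaks were longer with ATRA (5781 and 5798 bp) than with ethanol (5607 and 5577 bp). These lengths were not scaled to the library total. Over the whole CCNE1 region the conditions overlapped (5987 and 6287 bp against 5994 and 5577 bp), and the change was 0.07, or -0.13 after scaling.

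H3K27ac peaks overlay the TSS of 4 genes (CDKN1B, CDKN2C, CCND2 and CCND3) in both ATRA-treated and both control libraries, where the background was 28.6% and 21.6%. Within 1 kb of the TSS there was a peak at 7 of the 10 genes in each condition, compared with 42.8% of genes in ATRA-treated and 36.2% in control cells. The remaining 3 genes were CDKN1A, CDKN1C and CDK6, the same that lay at the ends of the H3K27ac ranking. CDKN1A and CDKN1C had no H3K27ac within 2 kb of the TSS in any of the 4 libraries. CDK6 had 1467 bp there in ATRA replicate 2 and 1025 bp in control replicate 2, and none in the libraries numbered 1. The H3K27ac of CCNE1 lay just upstream of its TSS, from -2230 to -474 bp relative to it in ATRA replicate 1 and from -1920 to -475 bp in control replicate 1. Peaks of 14850 bp at CDKN2C and 11990 bp at CDKN1B in ATRA replicate 2 were the longest over a TSS and were not matched by ATRA replicate 1, with 2892 and 6060 bp.

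**Figure D3:**
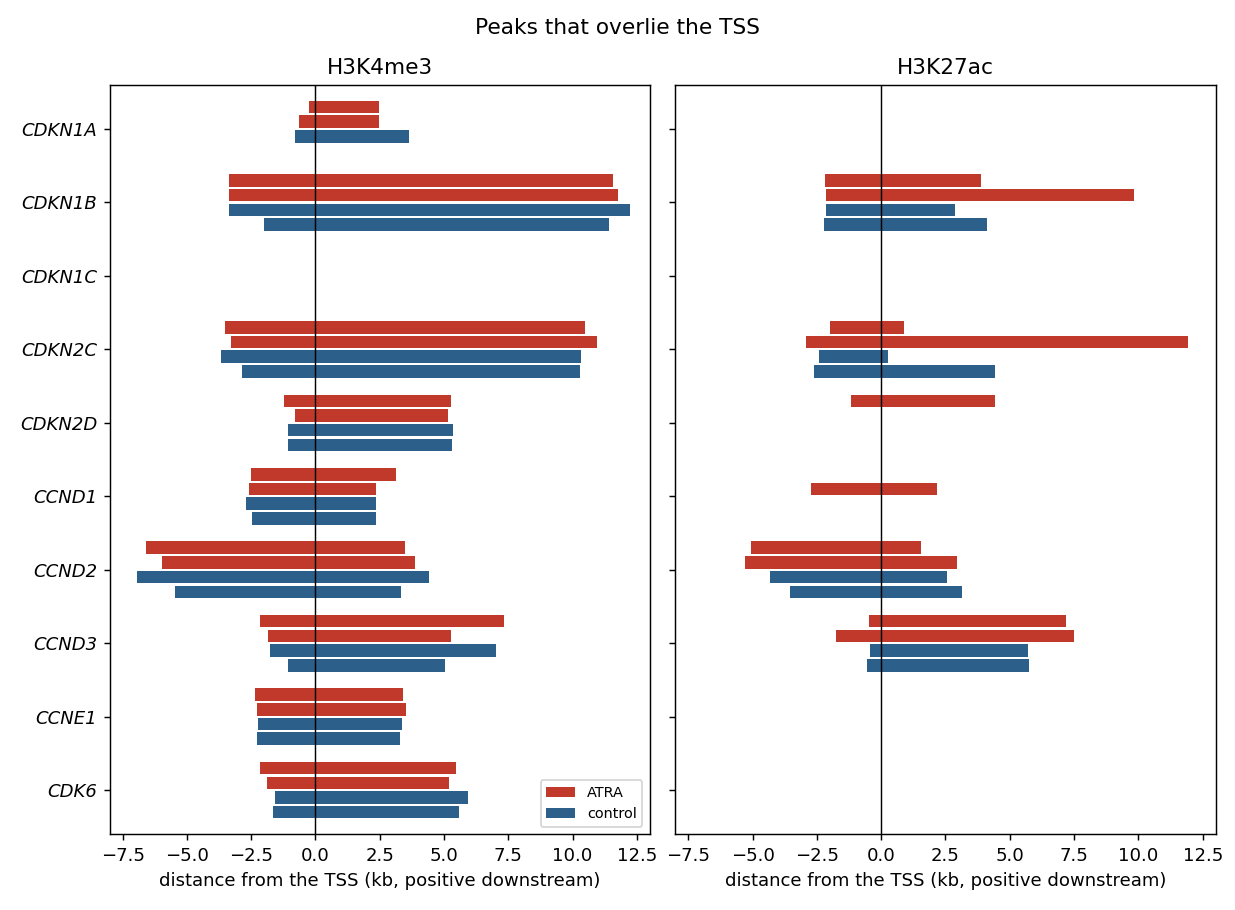
Extent of the peaks that overlie the TSS, in kb from it (0, positive downstream), with H3K4me3 on the left and H3K27ac on the right. Each bar is 1 library, in the order ATRA replicates 1 and 2 (red) and control replicates 1 and 2 (blue), and rows without a bar have no peak over the TSS, as for CDKN1C in both marks and CDKN1A in H3K27ac.

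CDKN1A encodes p21, the inhibitor that p53 activates, and lies on chromosome 6 from 36644237 to 36655114 on the plus strand. Part of its promoter overlaps an exon of the long non-coding RNA gene DINOL. This promoter is shown because H3K4me3 peaks overlapped it in all libraries but control replicate 2, and H3K27ac peaks in none. An element downstream of the gene is shown because H3K27ac covered it in both ATRA-treated libraries and in neither control library. The promoter is the 250 bases before the canonical TSS (chr6:36646241-36646490, plus strand). The element is the central 300 bases, which overlap no annotated gene, of a stretch of 2540 bp (chr6:36658320-36658619, plus strand). A longer stretch, of 2948 bp near the TSS of the neighboring gene RAB44, was left out by choice. Capitals mark matches, on either strand, to the GC box GGGCGG, to the NF-Y word CCAAT, to the TATA box TATAAA, to AGGTCA, which is the half-site of retinoic acid receptors and other nuclear receptors, or to the E2F-type words, which are TTTGGCGC as well as TTTCGCGC and finally TTTCCCGC.
CDKN1A promoter: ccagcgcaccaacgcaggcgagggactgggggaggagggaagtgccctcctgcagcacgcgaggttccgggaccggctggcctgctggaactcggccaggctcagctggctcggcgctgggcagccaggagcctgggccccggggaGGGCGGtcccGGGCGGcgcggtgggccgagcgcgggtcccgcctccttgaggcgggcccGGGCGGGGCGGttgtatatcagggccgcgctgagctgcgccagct
CDKN1A downstream element: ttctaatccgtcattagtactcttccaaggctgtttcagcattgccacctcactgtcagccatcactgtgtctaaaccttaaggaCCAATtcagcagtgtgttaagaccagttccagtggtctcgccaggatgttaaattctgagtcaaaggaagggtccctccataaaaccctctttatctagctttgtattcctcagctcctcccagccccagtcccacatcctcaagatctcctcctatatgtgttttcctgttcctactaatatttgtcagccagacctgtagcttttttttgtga
The promoter held GGGCGG at 4 places, from position -104 to -40 relative to the TSS, of which those at -45 and -40 share a base. This word was found in the promoters of 58.6% of protein-coding genes. The element held CCAAT at its base 86, a word found in 33.0% of the central 300 bases of 46222 merged H3K27ac peaks.

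H3K27ac peaks covered 18436 and 17077 bp of the CDKN1A region in the ATRA-treated libraries and 1793 and 7523 bp in the control libraries. Both ATRA-treated values were well above the higher control value, and the control libraries differed widely from each other. By mean length this was 3.81-fold. The log2 change was 1.73 (2.80 between the libraries numbered 1 and 1.08 between those numbered 2), and 1.13 after scaling to the library total. It was 1.14 without control replicate 1 and 2.75 without control replicate 2. Of the covered bases, 4401 and 4009 bp with ATRA and 893 and 2550 bp with ethanol lay in the gene body, and most of the rest lay downstream of it. RAB44, a gene of the Rab GTPase family, has its TSS 19112 bp downstream of that of CDKN1A. Beyond 2 kb of this and any other coding TSS, coverage was 15742 and 13909 bp with ATRA and 893 and 6235 bp with ethanol. With only peaks of a −log10 q of at least 5, a column that hardly agreed between replicates, the change was -0.30.

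Base by base, 8141 bp of the region were under H3K27ac in both ATRA-treated libraries and in neither control library, and none the other way around. This measure was added after the covered lengths were known. At least as many such bases were found in 3.73% of genes with a peak, and the median over those genes was 333 bp. They fell into 5 stretches of at least 200 bp, at 3835 to 4652, 8373 to 9117, 10710 to 13249, 20175 to 23122 and 23925 to 24918 bp downstream of the TSS. The last 2 of these lie within 6 kb downstream of the RAB44 TSS, where all 4 H3K4me3 libraries had a peak of 5226 to 6690 bp, and which of the neighboring genes these stretches belong to was not tested. H3K4me3 over the whole CDKN1A region was 9397 and 9028 bp with ATRA and 10216 and 6158 bp with ethanol, so that the groups overlapped.

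**Figure D4:**
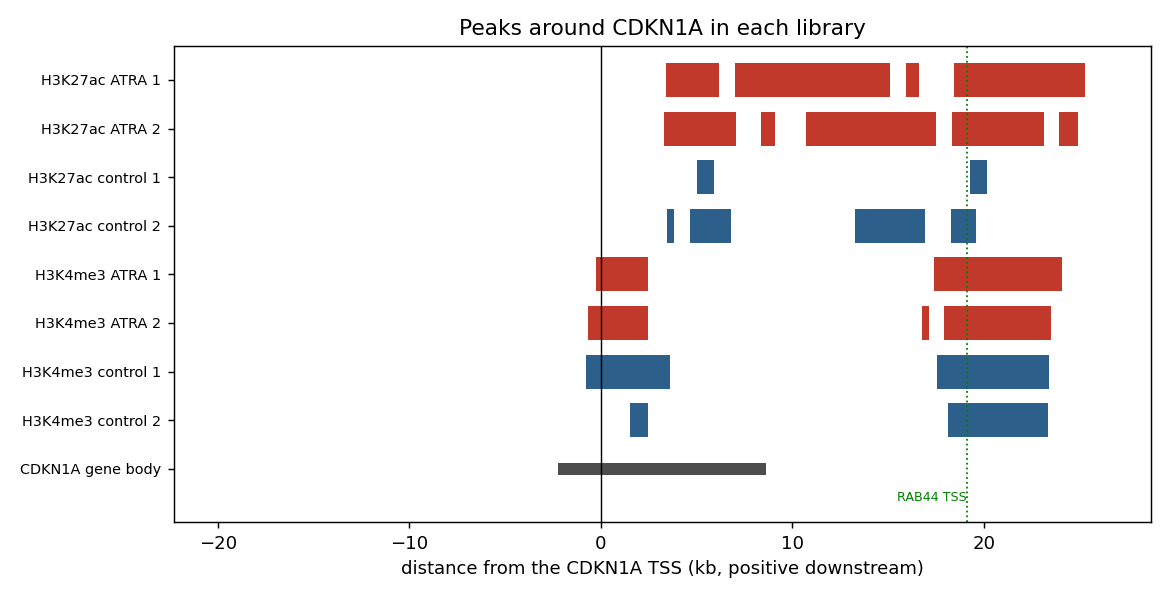
Peaks around CDKN1A by distance from its TSS in kb (positive downstream), with 1 row per library (red, ATRA-treated; blue, control), the gene body in gray and the RAB44 TSS as a dotted line. H3K27ac lies downstream of the TSS in all rows, and the stretch from 10710 to 13249 bp is covered only in the ATRA-treated rows.

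CDKN1C encodes p57, is imprinted and lies on chromosome 11 from 2904443 to 2907005 on the minus strand. H3K27ac peaks covered 5463 and 6284 bp of its region in ATRA-treated cells and 717 and 269 bp in control cells. The mean length was 11.9-fold higher. The log2 change was 2.20 (1.91 between the libraries numbered 1 and 2.52 between those numbered 2), between 2.00 and 2.44 when any 1 library was left out, and 1.58 after scaling. None of this coverage was in the gene. No peak of either mark lay over the TSS or in the gene body in any library, and the gene body alone gave a change of 0. The main stretch found only in the ATRA-treated cells was 3577 bp long, from -15914 to -12338 bp relative to the CDKN1C TSS and next to the TSS of SLC22A18, a transporter gene, which is at -16503 bp. H3K4me3 peaks of 4189 and 3264 bp with ATRA and 3329 and 1422 bp with ethanol also lay at that TSS. The stretch counted for CDKN1C was thus nearer to the SLC22A18 promoter than to its own.

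The distant stretch is shown by 244 bases from its middle that overlap no exon and lie in introns of SLC22A18 and its antisense gene SLC22A18AS (chr11:2921037-2921280, plus strand), because it carried the difference counted for CDKN1C.
CDKN1C distant element: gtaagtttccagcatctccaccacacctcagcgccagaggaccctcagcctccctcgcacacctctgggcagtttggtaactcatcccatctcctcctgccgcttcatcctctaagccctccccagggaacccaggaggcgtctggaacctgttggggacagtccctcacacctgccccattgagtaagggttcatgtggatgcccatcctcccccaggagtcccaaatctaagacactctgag
This element held none of the 7 words.

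CDKN1B, CDKN2C and CDKN2D, the other inhibitors, changed little relative to the spread of their libraries. CDKN1B (p27, chromosome 12, 12838432 to 12875303, plus strand) was covered by H3K27ac over 12424 and 16609 bp with ATRA and 10453 and 14218 bp with ethanol. Its change of 0.22 was nearly the same within both replicate numbers (0.23 and 0.21) and below the all-gene median. The CDKN1B region also holds the promoter of GPR19. Within 2 kb of that other coding TSS lay 2297 and 2263 bp of the H3K27ac coverage with ATRA and 1302 and 2936 bp with ethanol. CDKN2C (p18, chromosome 1, 51426417 to 51440306, plus strand) had 7343 and 17394 bp and 6188 and 12938 bp, a change of 0.34, and replicate number made more difference than treatment. The CDKN2C region also holds the promoter of FAF1. CDKN2D (p19, chromosome 19, 10677136 to 10679735, minus strand) had 6272 and 4194 bp and 3655 and 4741 bp, a change of 0.26 whose sign differed between the replicate numbers (0.64 and -0.14). The CDKN2D region also holds the promoters of AP1M2 and KRI1, and the KRI1 TSS is 2969 bp downstream of that of CDKN2D. Of the H3K27ac coverage, 2430 and 2255 bp with ATRA and 2006 and 2320 bp with ethanol lay within 2 kb of other coding TSSs. For H3K4me3 the changes of CDKN1B, CDKN2C and CDKN2D were 0.05, 0.09 and 0.12, and the conditions overlapped for each.

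CCND2 encodes cyclin D2 and lies on chromosome 12 from 4378937 to 4414519 on the plus strand. H3K27ac covered 10219 and 10483 bp of its region with ATRA and 6867 and 7571 bp with ethanol, with all 4 libraries sharing a peak over the TSS. The change was 0.47, close to the all-gene median, and -0.40 after scaling. A peak in the gene body, 3617 bp long in ATRA replicate 1 and 1982 bp in ATRA replicate 2, was absent from both control libraries. The shared part lay from 14568 to 16549 bp downstream of the TSS. With overlapping peaks of the 4 libraries merged, it was the only H3K27ac peak of the 10 genes present in both ATRA-treated libraries and in neither control library. How many of all genes had such a peak was not counted. The 3577 bp stretch at CDKN1C did not count, because the peak of ATRA replicate 1 there extended into a peak of control replicate 1. The H3K27ac libraries held 28200 and 39332 peaks with ATRA and 15457 and 29616 with ethanol. The central 300 bases of the shared part, which overlap no exon, are given because it overlapped no control peak (chr12:4398336-4398635, plus strand).
CCND2 intronic element: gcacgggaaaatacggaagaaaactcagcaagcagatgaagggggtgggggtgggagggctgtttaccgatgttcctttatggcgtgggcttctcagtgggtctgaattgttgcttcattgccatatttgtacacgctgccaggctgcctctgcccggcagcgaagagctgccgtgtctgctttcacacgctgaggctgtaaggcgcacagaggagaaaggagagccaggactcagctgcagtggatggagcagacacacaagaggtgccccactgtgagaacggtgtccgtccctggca
None of the 7 words occurred in it. H3K4me3 over the CCND2 region was 13177 and 13470 bp with ATRA and 14578 and 10695 bp with ethanol. The region also holds the promoter of TIGAR. Within 2 kb of that other coding TSS lay 2912 and 2916 bp of this coverage with ATRA and 2975 and 1896 bp with ethanol.

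CDK6 encodes the kinase partner of D-type cyclins and lies on chromosome 7 from 92234235 to 92465887 on the minus strand. It was the only gene of the 10 with less mean H3K27ac coverage in ATRA-treated cells. Peaks covered 1012 and 5576 bp with ATRA and 1848 and 8471 bp with ethanol, so the groups overlapped, although the ATRA-treated library was the lower within each replicate number. The change was -0.52, and its sign depended on single libraries, with 0.094 without ATRA replicate 1 and 0.59 without control replicate 2. In the libraries numbered 1, most of the coverage was at the promoter of the neighboring gene FAM133B (1012 bp of ATRA replicate 1 and 1003 bp of control replicate 1). A stretch of 845 bp in the gene body, from 80768 to 81612 bp downstream of the TSS, was covered in both control libraries and in neither ATRA-treated library. At least as many such bases were found in 5.61% of genes with a peak, and any such base in 22.0%. Region length, which was 271653 bp for CDK6, was not allowed for. In the same region 154 bp were covered in both ATRA-treated libraries and in neither control library. H3K4me3 was steady at 11889 and 10722 bp and 11797 and 9847 bp, with a peak of 7070 to 7639 bp over the TSS in every library. The central 300 bases of the stretch seen only in control cells overlap no exon and follow (chr7:92384547-92384846, plus strand).
CDK6 intronic element: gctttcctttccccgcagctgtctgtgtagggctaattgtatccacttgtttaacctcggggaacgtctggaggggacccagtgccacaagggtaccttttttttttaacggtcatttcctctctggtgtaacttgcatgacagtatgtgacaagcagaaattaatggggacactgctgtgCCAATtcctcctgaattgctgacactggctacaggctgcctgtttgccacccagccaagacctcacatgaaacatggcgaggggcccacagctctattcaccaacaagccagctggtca
CCAAT was found at its base 182.

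**Figure D5:**
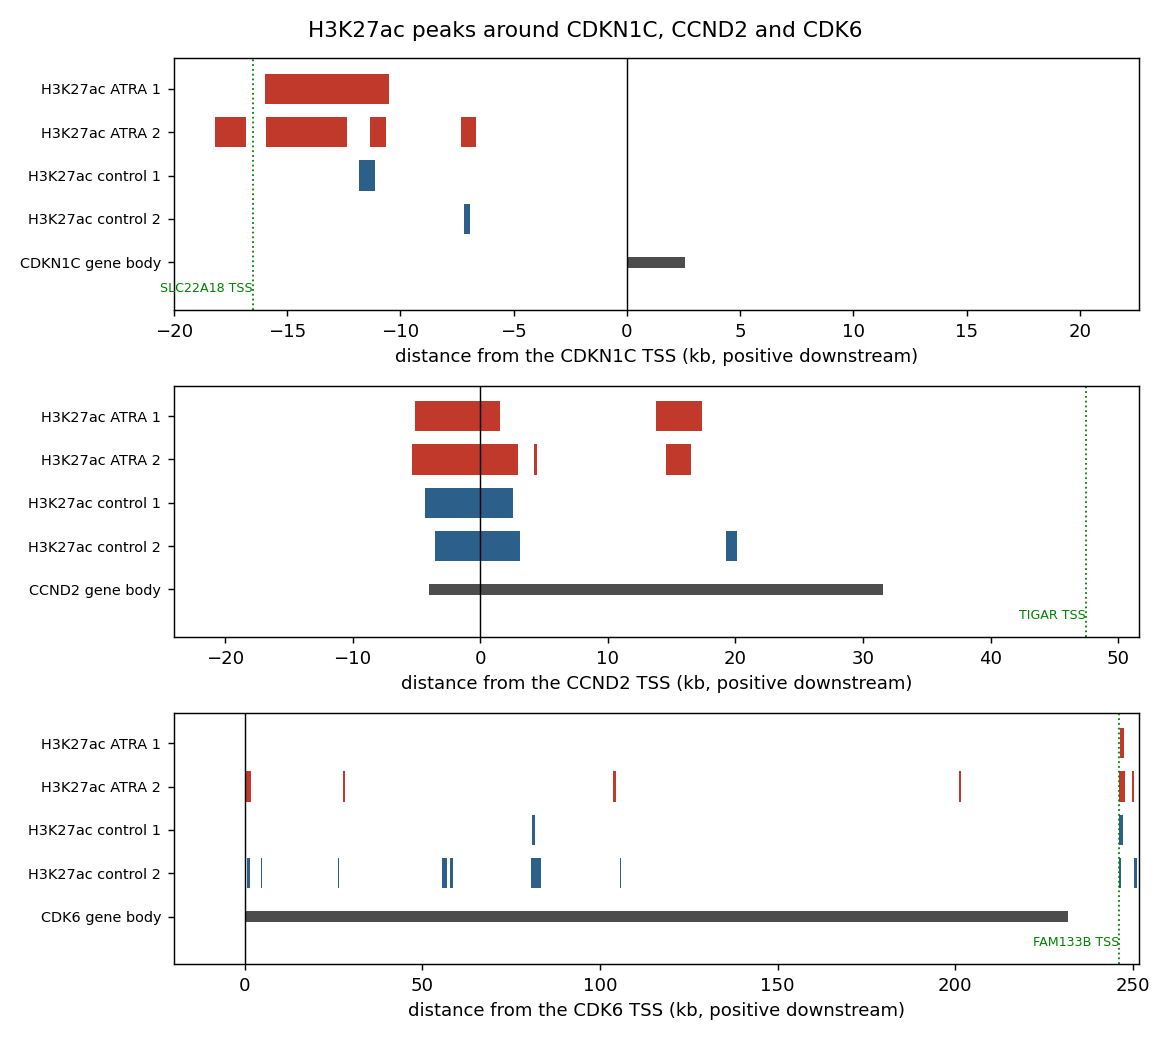
H3K27ac peaks around CDKN1C, CCND2 and CDK6 by distance from each TSS in kb (positive downstream), with 1 row per library (red, ATRA-treated; blue, control), gene bodies in gray and neighboring coding TSSs as dotted lines. The CDKN1C peaks all lie upstream of its TSS, the CCND2 peaks between 13758 and 17374 bp are in the red rows only, and the CDK6 stretch at 80768 to 81612 bp is in the blue rows only.

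CCND1, CCND3 and CCNE1 encode cyclins D1, D3 and E1. CCND1 (chromosome 11, 69455924 to 69469242, plus strand) was covered by H3K27ac over 2082 and 4901 bp with ATRA and 1201 and 1959 bp with ethanol, a change of 0.80. The lower ATRA-treated value lay just above the higher control value, and the change was 0.26 without ATRA replicate 2, in which a 4901 bp peak spanned the TSS. In the other 3 libraries the CCND1 peak began just downstream of the TSS. A second peak at the region's edge, within 2 kb of another coding TSS, added 201 bp in ATRA replicate 1 and 154 bp in control replicate 1. The peak next to the CCND1 TSS was 1881 bp long in ATRA replicate 1 and 1959 bp in control replicate 2. By that peak alone the conditions overlapped. CCND3 (chromosome 6, 41902672 to 42018095, minus strand) had the largest coverage of the 10 genes, with 30858 and 38963 bp with ATRA and 19397 and 30891 bp with ethanol. Its region of 155424 bp is the longest of the 10 after that of CDK6, and it holds the promoters of MED20, BYSL and TAF8. The groups overlapped narrowly and the change was 0.46. At CCND3, 2833 bp were covered in both ATRA-treated libraries and in neither control library, and 15.5% of genes had at least as many. At CCND2 this was 2731 bp, and 16.1% of genes had at least as many. The other 2 merged peaks of the 10 genes found only with ATRA were short H3K4me3 peaks in the CCND3 region. They were of 430 and 654 bp in the flank downstream of the gene and of 828 and 218 bp within the gene body. The share of all genes with such H3K4me3 peaks was not counted. CCNE1 (chromosome 19, 30302898 to 30315219, plus strand) had 1757 and 1739 bp and 1446 and 1281 bp, with a change of 0.22, which was -0.41 after scaling.

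H3K4me3 coverage was higher in both ATRA-treated libraries for CCND1 alone (8854 and 9259 bp against 8045 and 7661 bp, a change of 0.18) and lower for none. The peaks over the CCND1 TSS overlapped in length, with 5649 and 4948 bp with ATRA and 5049 and 4826 bp with ethanol. A second peak lay 29594 bp or more downstream of the TSS and ran past the region's end. Its full length was 5431 and 5980 bp with ATRA and 5177 and 4760 bp with ethanol. In every library 1122 bp of the region's H3K4me3 lay within 2 kb of another coding TSS. The background was 41.3% higher and 3.39% lower, against 1 and 0 of these 10 genes. After scaling, 0 genes were higher and 4 (CDKN1B, CDKN2C, CCND2 and CDK6) lower, where the background was 16.0% and 25.4%, and the change of CCND1 was -0.03. The medians were 0.12 for the inhibitors and 0.07 for the drivers, both under the all-gene median of 0.16. The CCND1 promoter (chr11:69455674-69455923, plus strand) is given as the only one of the 10 with an E2F-type word.
CCND1 promoter: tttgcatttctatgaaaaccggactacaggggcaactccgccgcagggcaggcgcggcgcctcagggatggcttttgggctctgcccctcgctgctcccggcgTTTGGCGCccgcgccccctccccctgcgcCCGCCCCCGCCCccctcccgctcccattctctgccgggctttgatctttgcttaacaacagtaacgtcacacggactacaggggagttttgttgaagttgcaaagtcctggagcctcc
It held TTTGGCGC at position -147, which 0.727% of promoters hold, and GGGCGG at 2 places. AGGTCA was in none of the promoters and elements printed here, compared with 9.99% of all promoters and 19.1% of the central 300 bases of H3K27ac peaks, and no match says only that these letters are not in these windows.

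Another 22 genes of the same pathway were examined as a list. All had H3K4me3 over the TSS in both conditions. H3K27ac was higher around 11 and lower around 1, beside 43.7% and 3.86% of all genes tested, with a median change of 0.49, close to that of all genes. After scaling 3 were higher and 9 lower, beside 18.4% and 25.1% of all genes. The largest changes upward were at RBL1 (1.76; 8724 and 12604 bp with ATRA and 2230 and 2674 bp with ethanol) and FBXW7 (1.63). After scaling these changes were 0.97 and 0.76, and the libraries then overlapped at FBXW7. RB1, which encodes the retinoblastoma protein that CDK4 and CDK6 phosphorylate, came next with 1.58 (42942 and 70845 bp against 10008 and 26713 bp) and had 0.79 after scaling. RBL1 encodes its relative p107, and FBXW7 the ubiquitin ligase subunit that targets cyclin E. The gene with lower coverage was TFDP2, which encodes a dimerization partner of E2F factors. Its region had 893 and 3086 bp with ATRA and 8286 and 15461 bp with ethanol, a change of -2.11, at percentile 0.246 of all genes. This change was further from 0 than that of CDK6, and it was -2.86 after scaling. H3K4me3 was higher around 8 and lower around 0 of the 22, beside 41.3% and 3.39% of all genes tested. After scaling 3 were higher and 9 lower, beside 16.0% and 25.4% of all genes. The largest changes before scaling were at RB1 (0.43), E2F4 (0.35) and MDM2 (0.35). At TFDP2 the H3K4me3 change was -0.19, with 9982 and 9567 bp against 12716 and 9836 bp.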

How the data were processed

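ChIP-seq peaks of H3K4me3 and H3K27ac in HL-60 cells with ATRA or ethanol were analyzed (2 libraries per mark and condition). The authors trimmed adapters (cutadapt), mapped reads to hg19 (Bowtie) and called broad peaks in each library (MACS2, human genome size, no fragment model). They also made input libraries from sheared genomic DNA, but tool versions and whether the input entered the peak call are not given in the sources used here. The deposited positions and, as a filter only, the deposited −log10 q were used. The columns of fold enrichment and −log10 p contain impossible values and were not read. Genes and canonical TSSs came from GENCODE release 44 mapped to GRCh37, the same build, and 0 peaks ran past a chromosome end. Sequences came from the GRCh37 genome. They are printed for some members only, and others are not reported here. Depth is unknown, so no counting interval could be given.

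The coverage arithmetic was tested on simulated peaks. The members and lists were chosen with earlier results of these data known. The named genes are all 10 members, the 3 largest changes per direction among the other G1 genes past the overlap rule, and peaks present in both libraries of 1 condition and neither of the other. Samples were grouped by the labels and compared by whether libraries overlap, without a test. Alternatives were the pseudocount, flank, q threshold, peak length, TSS definition, scaling, peak number, the replicate block and leaving out each library. Python 3.11.15, numpy 2.4.6, scipy 1.17.1 and matplotlib 3.10.9 were used.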

Additional observations from a re-analysis of the deposited data

How the results depend on the processing

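The difference between the inhibitor and the driver median (main values -0.12 for H3K27ac and 0.042 for H3K4me3) had no stable sign. For H3K27ac it was 0.00039 in the gene body alone, 0.64 with 50 kb flanks, 0 by peak number and -0.15 to 0.32 when each library was left out. For H3K4me3 it was -0.016, -0.081 and 0 under these settings, -0.083 at a −log10 q of at least 5, -0.020 with peaks of at least 1 kb and -0.0098 to 0.054 when each library was left out.

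The 5 genes with higher H3K27ac became 3 in the gene body alone, 0 at a −log10 q of at least 5, 2 after scaling and 0 by peak number, and between 5 and 9 when each library was left out (8 without ATRA replicate 1 and 9 without control replicate 2). The 0 with lower H3K27ac became 3 after scaling, and 0 or 1 when each library was left out. The 1 with higher H3K4me3 became 2 in the gene body, 2 with 50 kb flanks, 3 at a −log10 q of at least 5, 0 after scaling and between 1 and 10 when each library was left out (10 without control replicate 1). The 0 with lower H3K4me3 became 1 in the gene body, 4 after scaling and between 0 and 3 when each library was left out (3 without control replicate 2). An arm reduced to 1 library is easier to separate. The 4 genes with H3K27ac over the TSS became 1 (ATRA-treated) and 0 (control) at a −log10 q of at least 5, 2 and 0 at the 5′ end of the gene record, and 7 and 7 within 1 kb. The counts with H3K4me3 over the TSS were 9 (ATRA-treated) and 8 (control), 7 and 7 at the 5′ end of the gene record, and 9 and 9 with a peak in at least 1 library. Without control replicate 2 the control count was 9. The other settings gave 9 and 8.

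The replicate block, which compares libraries of the same number, gave 8 higher and 1 lower gene for H3K27ac and 5 higher for H3K4me3. The libraries share a number and a tag in the peak names, and deviations of same-numbered libraries from their condition means had a Pearson r of 0.504 over 15477 genes (H3K27ac) and 0.256 over 14609 genes (H3K4me3). With 2 pairs, this does not establish a pairing.

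Of 240 values of single genes under alternatives, 36 had another sign than the main value, 15 of them after scaling. Of these 36, 4 belonged to genes whose libraries had not overlapped. These 4 were CDKN1A H3K27ac at a −log10 q of at least 5 (-0.30), and after scaling CCND2 H3K27ac (-0.40), CCNE1 H3K27ac (-0.41) and CCND1 H3K4me3 (-0.027). Scaling also turned H3K27ac at CDKN1B (-0.66), CDKN2C (-0.48), CDKN2D (-0.47) and CCND3 (-0.41), and H3K4me3 at 9 of the 10 genes, CCND1 included. H3K27ac at CDK6 was 0.094 without ATRA replicate 1 and 0.59 without control replicate 2. The deposited −log10 q of peaks matched between replicates had a Spearman rho of 0.055 (ATRA-treated, 19113 peaks) and 0.060 (control, 12389 peaks) for H3K27ac and 0.19 and 0.12 for H3K4me3. The lengths of the same peaks had 0.45, 0.44, 0.85 and 0.89, so settings on q rest on a column that hardly repeats.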
